A study of Mus musculus with 24 samples.

Results

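Set A and set B are 3'Pool-seq libraries made from the frontal cortex RNA of the same mice, and the set A library of each mouse was compared with its set B library. All 24 libraries of the series entered the comparison, since each of 6 mice gave 4 libraries, 1 in each set at each of 2 cDNA amounts (2 ng and 1 ng put into tagmentation). This gave 6 pairs per cDNA amount and 12 pairs in all. The members were chosen by the letter at the end of the library name, a rule that uses no measured value.

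The mice were 3 WT C57BL/6 animals and 3 animals homozygous for GFAP-IL6, all 3 months old, and the labels name no treatment. In GFAP-IL6 mice the promoter of Gfap, an astrocyte gene, drives the cytokine Il6, so the animals are a model of neuroinflammation that starts from astrocytes. The study mentions repeated library preparations from the same samples as a check of reproducibility, but neither the labels nor the methods tie them to the letters A and B or say how the sets differ in their making. In 3'Pool-seq, barcoded samples are pooled right after reverse transcription, so the later steps act on a pool and not on single samples. The labels do not say which libraries shared a pool. If the 6 libraries of a set and amount did, each set is 1 preparation per amount. The p-values below then rest only on how the set difference varied from mouse to mouse within the pools.

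3'Pool-seq primes cDNA from the polyA tail with an anchored oligo-dT primer and amplifies full-length cDNA. It then cuts the cDNA with a transposase (tagmentation) and amplifies only the fragment that carries the 3' end. The reads of a gene therefore come from the ends of its transcripts, and the base composition there is part of what is amplified. Amplification of DNA by PCR is known to depend on GC content, the share of G and C bases. Both libraries of a pair came from the RNA of 1 mouse, so differences between animals do not enter the comparison.

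The last 30 bases of the annotated transcript are shown for 8 genes with large set differences in 1 direction at both cDNA amounts, since this is where the oligo-dT primer is expected to start. Capitals mark the polyadenylation signals AATAAA and ATTAAA, which were searched on the transcript strand. The sequences are from GENCODE vM21 on GRCm38 (mm10), from the longest basic transcript of each gene. The first 4 were higher in set A and the last 4 were lower. Isoc1, which ranked above Zfp771, Nrtn and Rab24 among the decreases described below, is not shown.
mt-Nd3: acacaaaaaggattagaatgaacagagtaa
Cav2: gaaccttttcaAATAAAgtttcttaaaatc
Lsm5: actaaaaaaAATAAAgatgtttttggttaa
Tceal1: taatAATAAAgatttaggtaatttctggta
Tmem160: actgggacATTAAAacctgacccttccgca
Zfp771: ttctgagtgAATAAAgtattctatcctcac
Nrtn: actgacttcacataaagtgtgggaactccc
Rab24: tctgaactgtaAATAAAattgatgcatttc
A signal of either kind stood in the last 30 bases of 69.2% of 12507 transcripts of tested genes, AATAAA in 55.8% and ATTAAA in 15.3%. The mitochondrial gene mt-Nd3 (chrM:9459-9806) and Nrtn showed neither in this window. Over the last 300 bases, the GC content was 34% in mt-Nd3, 30.7% in Cav2 (chr6:17281185-17289115), 30% in Lsm5 (chr6:56701063-56704710) and 29.3% in Tceal1 (chrX:136707982-136711478). It was 62.7% in Tmem160 (chr7:16452779-16455494), 64% in Zfp771 (chr7:127244274-127254803), 69% in Nrtn (chr17:56751325-56757530) and 50.7% in Rab24 (chr13:55319743-55321946). In these 8 genes each of the 4 higher in set A had less GC at its end than each of the 4 lower. This did not hold for all 16 genes of the largest changes described below, since Isoc1 and Rfxap were lower in set A with 37% and 40% GC, while Rnaseh1 and Pdcl3 were higher with 39% and 40%.

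Between 1524165 and 12256374 reads were counted per library, and 13131 to 13913 genes reached more than 1 CPM (counts scaled by the library total). At 2 ng the totals of the sets differed little, with set A at 1.01 times set B on average, whereas at 1 ng set A held 0.763 times as many reads as set B and was lower in 6 of 6 mice (exact paired permutation test, two-sided p = 0.0313, the smallest that 6 pairs allow, 0.125 after Benjamini-Hochberg adjustment). With every library thinned to the smallest total, 12.3 ± 42.4 more genes (SD of the difference, n = 6 mice) reached 1 CPM in set A at 2 ng and 6 ± 29.2 more at 1 ng. Both differences were smaller than their spread between mice (exact paired permutation test, p = 0.469 and 0.812). The counts of no pair agreed within sampling noise, with a chi-square per degree of freedom between 2.31 and 8.61, so that no library was a copy of its partner. Il6 stood at 0 to 0.522 CPM in the WT libraries and at 0.778 to 6.17 CPM in those of GFAP-IL6 mice, so in both sets the lowest GFAP-IL6 library lay above the highest WT library.

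With 2 ng of cDNA, a large share of the genes differed between the sets, by small amounts. Of 12089 genes tested, 4146 (34.3%) were called at an adjusted p under 0.05 by edgeR's quasi-likelihood test with the mouse as a block, 2193 higher in set A (18.1%) and 1953 lower (16.2%). The called genes differed by a median of 0.33 on the log2 scale, or 1.26-fold, and 59 of them by more than 1. Of the called genes, 2939 (70.9%) moved the same way in all 6 mice. Over all genes tested, the median log2 fold change of set A over set B was -0.01 and the SD 0.31. With the genotype in place of the mouse block, 2567 genes were called.

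Snap25 and Ptn were among the 3 genes with the smallest adjusted p at 2 ng, and both were higher in set A. Snap25 (chr2:136713453-136782428), which encodes a membrane protein of the synaptic vesicle fusion machinery, stood between 4313 and 5549 CPM in set A, with a median of 4741, and between 2755 and 3390 CPM in set B, with a median of 2962. The ranges did not overlap, and the log2 fold change was 0.67 ± 0.01 (SE, adjusted p = 2.02e-89). Ptn (chr6:36714929-36810220), the gene of the growth factor pleiotrophin, ranged from 980 to 1101 CPM in set A (median 1029) and from 543 to 631 in set B (median 576), a log2 fold change of 0.85 ± 0.02. In both genes all 6 set A libraries lay above all 6 set B libraries.

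With 1 ng of cDNA, fewer genes differed and by less. Of 12467 genes tested, 707 (5.67%) were called, 359 higher in set A (2.88%) and 348 lower (2.79%). Their median difference was 0.23 on the log2 scale, or 1.17-fold. The 6 that differed by more than 1 were Nkain3, Ppic and Aass, higher by 1.21 ± 0.27, 1.03 ± 0.30 and 1.01 ± 0.28, and Suv39h2, Ppp1r37 and Igfbp2, lower at -1.08 ± 0.33, -1.02 ± 0.31 and -1.0003 ± 0.14. All but Igfbp2 had a mean under 5 CPM, and they are named after their values were seen. Of the called genes 526 (74.4%) moved the same way in all 6 mice. With the genotype in place of the mouse block 94 genes were called, and the biological coefficient of variation was 0.112 in place of 0.0588 with the mouse block. Pink1 (chr4:138313409-138326307), which encodes a kinase of mitochondrial quality control, was among the 3 genes with the smallest adjusted p, with 315 to 383 CPM in set A (median 332) and 428 to 548 in set B (median 477). No set A library reached the lowest set B library, and the log2 fold change was -0.51 ± 0.03 (adjusted p = 9.15e-32). The other two were mt-Rnr2, the large ribosomal RNA of mitochondria, at 0.10 ± 0.01 on the log2 scale (adjusted p = 3.52e-36), and Tmem160.

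The sets differed in the same direction at the 2 amounts for most of the called genes. Of 12020 genes tested at both, 604 were called at both, 297 of them higher in set A at both and 278 lower at both. These 575 genes made up 13.9% of the genes called at 2 ng and 81.3% of those called at 1 ng. Their median absolute log2 fold change was 0.39 at 2 ng and 0.22 at 1 ng, and the difference was larger at 2 ng in 480 of them. The 2 comparisons share the mice but no library. Whether the libraries of a set at the 2 amounts came from 1 cDNA pool is not given, so the comparisons may not be independent preparations. Across the 12020 genes, the log2 fold changes were related with Pearson's r = 0.48 and Spearman's rho = 0.48, which describes these genes and is no test, since genes are not independent replicates. The other 29 genes were called in opposite directions, 13 of them higher in set A at 2 ng and lower at 1 ng, and 16 the other way.

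**Figure D1:**
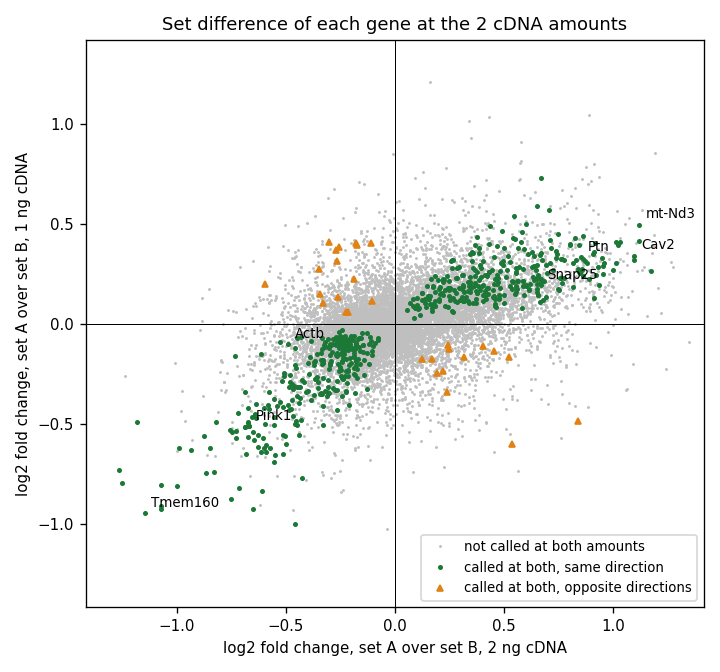
The log2 fold change of set A over set B at 2 ng (horizontal axis) is plotted against that at 1 ng (vertical axis) for each of the 12020 genes tested at both amounts. The 575 genes called at both in the same direction lie along a line flatter than the diagonal, with mt-Nd3 at the upper right and Tmem160 at the lower left, and the 29 called in opposite directions lie in the remaining quadrants.

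Among genes called at both amounts, the 8 with the largest increase in set A in all 12 pairs were mt-Nd3, Cav2, Lsm5, Tceal1, Rnaseh1, Tcp11l2, Tdp2 and Pdcl3. The gene mt-Nd3, a subunit of respiratory complex I encoded by mitochondrial DNA, ranged at 2 ng from 264 to 642 CPM in set A (median 426) and from 143 to 255 in set B (median 196). The log2 fold change was 1.12 ± 0.04 (adjusted p = 2.69e-59), and at 1 ng it was 0.49 ± 0.05 (adjusted p = 7.28e-13). Its 2 ranges at 2 ng did not overlap, although mice differed by more than 2-fold within set A. Cav2, which encodes a caveolin, had 62.9 to 97.8 CPM in set A at 2 ng (median 80.3) and 34.3 to 42.8 in set B (median 38.0), a log2 fold change of 1.10 ± 0.07 against 0.34 ± 0.08 at 1 ng. For Lsm5, a subunit of an RNA-binding ring of the spliceosome and of mRNA decay, the log2 fold changes were 1.02 ± 0.11 and 0.39 ± 0.12. Tceal1 gave 1.10 ± 0.07 and 0.32 ± 0.08. Rnaseh1, an enzyme that cuts RNA in RNA-DNA hybrids, was the only one of the 8 with a larger value at 1 ng, 0.73 ± 0.18 against 0.67 ± 0.16. The other 3 were between 0.86 and 0.95 at 2 ng and between 0.33 and 0.44 at 1 ng.

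The 8 genes with the largest decrease in set A in all 12 pairs were Tmem160, Isoc1, Zfp771, Nrtn, Rab24, 3110082J24Rik, Bri3 and Rfxap. None of the 8 passed the test of a difference between the amounts, and in 7 of them the log2 fold change was smaller in size at 1 ng. Tmem160 had 52.0 to 73.9 CPM in set A at 2 ng (median 56.1) and 116 to 141 in set B (median 128), a log2 fold change of -1.15 ± 0.06 (adjusted p = 3.35e-38). At 1 ng it had 59.9 to 82.2 CPM (median 65.3) against 122 to 142 (median 127), a log2 fold change of -0.95 ± 0.06 (adjusted p = 2.44e-29). The sets did not overlap at either amount. Rab24, a small GTPase linked to autophagy, had log2 fold changes of -1.07 ± 0.06 and -0.91 ± 0.06. Zfp771, a zinc finger gene, had -1.07 ± 0.07 and -0.92 ± 0.08. Rfxap, a subunit of the factor that drives MHC class II genes, was lower, at -0.75 ± 0.08 (2 ng) and -0.87 ± 0.08 at 1 ng. Isoc1 gave -1.25 ± 0.24 and -0.80 ± 0.22, Nrtn -1.26 ± 0.21 and -0.73 ± 0.22, and 3110082J24Rik -1.07 ± 0.25 and -0.80 ± 0.21. These 3 genes had a mean of 5.78 to 6.85 CPM and rest on few reads. Bri3 gave -1.0003 ± 0.11 and -0.81 ± 0.14. The annotation places another gene on the opposite strand at Cav2, Rab24, 3110082J24Rik and Bri3, and the reads of such pairs cannot be told apart unless strand was used in counting, which the sources used here do not give.

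**Figure D2:**
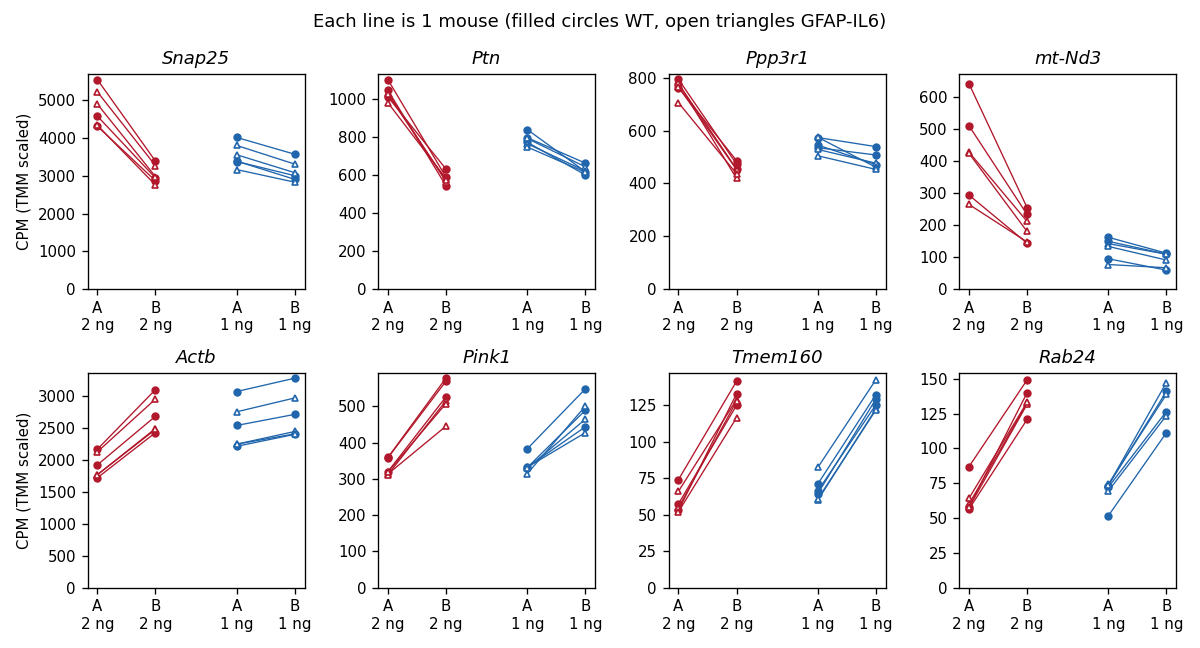
CPM after TMM scaling (vertical axis, starting at 0) is plotted for set A and set B at each amount for 8 genes, with 1 line for each mouse, filled circles for WT and open triangles for GFAP-IL6 mice. In the upper row every line falls from A to B, and in the lower row every line rises, for 6 of 6 mice at each amount.

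At 2 ng 3542 genes were called that were not called at 1 ng, and at 1 ng 103 that were not called at 2 ng. Among genes with a mean of at least 5 CPM, the 4 largest increases of the first kind were those of Nup54 and Nup153, both components of the nuclear pore, Bbs5, a subunit of the ciliary BBSome, and Dck, deoxycytidine kinase. Nup54 had 6.48 to 14.7 CPM in set A (median 12.9) and 2.20 to 6.78 in set B (median 4.53), a log2 fold change of 1.35 ± 0.21 (adjusted p = 1.69e-08), and at 1 ng it gave -0.09 ± 0.22. Dck had 23.3 to 40.2 CPM (median 26.8) against 9.90 to 13.8 (median 10.8), 1.26 ± 0.13, and 0.31 ± 0.15 at 1 ng. All 4 passed the test of a difference between the amounts (adjusted p between 3.24e-05 and 0.00993). The 4 largest decreases were those of Samd15, Rn7sk, Rest and Metrn, at -0.80 to -0.89 on the log2 scale, and none of them passed that test. Of the genes called only at 1 ng, with the same minimum of 5 CPM, the largest increases were those of Slx4, Kcnh2, Col25a1 and Smad5 (0.54 to 0.73) and the largest decreases those of Cdkn1c, Bloc1s4, Mapkbp1 and Get4 (-0.56 to -0.93). Of these 8, Smad5 and Bloc1s4 passed the test of a difference between the amounts.

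The genes that differed between the sets were sorted by the GC content of the 3' end. This was noticed in these data and then described, so it is given without a test. In the quintile of genes with the lowest GC content over the last 300 bases (15.3 to 34.0%), 1006 of 2445 were higher in set A at 2 ng and 159 lower, with a median log2 fold change of 0.23. In the quintile with the highest GC content (50.3 to 74.5%), 126 of 2277 were higher and 592 lower, with a median of -0.12. The shares higher and lower were 41.1% and 6.50% in the lowest quintile and 5.53% and 26.0% in the highest, beside 18.1% and 16.2% of all genes. The medians fell from each quintile to the next. At 1 ng, 171 genes of the lowest quintile were higher in set A and 33 lower (median 0.07), and in the highest quintile 18 were higher and 138 lower (median -0.05). These shares were 6.86% and 1.32%, and 0.766% and 5.87%, beside 2.88% and 2.79% of all genes. The genes called at both amounts as higher in set A had a median GC content of 34%, and those called lower had 48.8%.

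**Figure D3:**
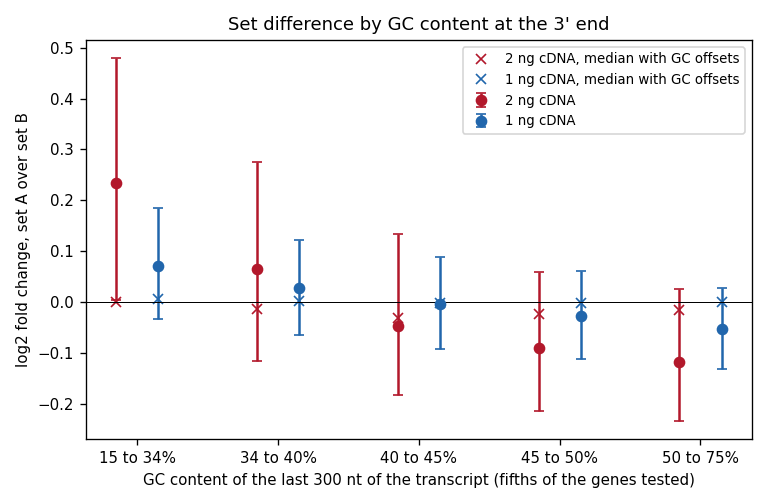
Dots show the median log2 fold change of set A over set B (vertical axis) in quintiles of the tested genes by GC content of the last 300 bases (horizontal axis), with bars from the 25th to the 75th percentile of genes, in red for 2 ng and blue for 1 ng. The medians run from 0.23 to -0.12 at 2 ng and from 0.07 to -0.05 at 1 ng. The crosses are medians after offsets for GC content. These offsets were fitted on the same GC measure, so that the crosses lie close to 0 follows from the fit.

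The same was seen in each library as a share of its reads. Genes with under 35% GC in the last 300 bases took 20.4 to 20.8% of the counts in set A at 2 ng (median 20.7%) and 17.7 to 18.2% in set B (median 18.1%). The 2 ranges did not overlap, and the share was higher in set A in 6 of 6 mice, by 2.61 ± 0.0772 percentage points (SD, n = 6). At 1 ng it was 18.9 to 19.2% in set A and 18.1 to 18.6% in set B, higher in set A in 6 of 6 mice by 0.755 ± 0.04998 percentage points (SD, n = 6). Genes with over 55% GC took a smaller share in set A, in 6 of 6 mice at each amount, at -0.579 ± 0.0768 points at 2 ng and -0.337 ± 0.0392 points at 1 ng (SD, n = 6 each).

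Along the transcript, the relation was closest near its end. Across genes, the correlation between the log2 fold change and GC content was strongest for the window from 100 to 200 bases before the annotated end, with Pearson's r = -0.34 at 2 ng (12031 genes) and -0.20 at 1 ng (12405 genes). It weakened to -0.21 and -0.14 for bases 1000 to 1500. Over the last 300 bases together it was -0.41 at 2 ng and -0.24 at 1 ng, and over the whole transcript -0.29 and -0.20. The points are genes measured in the same libraries, and neighbouring windows share composition and differ in width, so no p is given. Most of the spread between genes remained unrelated to this measure, and Ptn, with 42.7% GC, and Pink1, also with 42.7%, lay far apart.

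**Figure D4:**
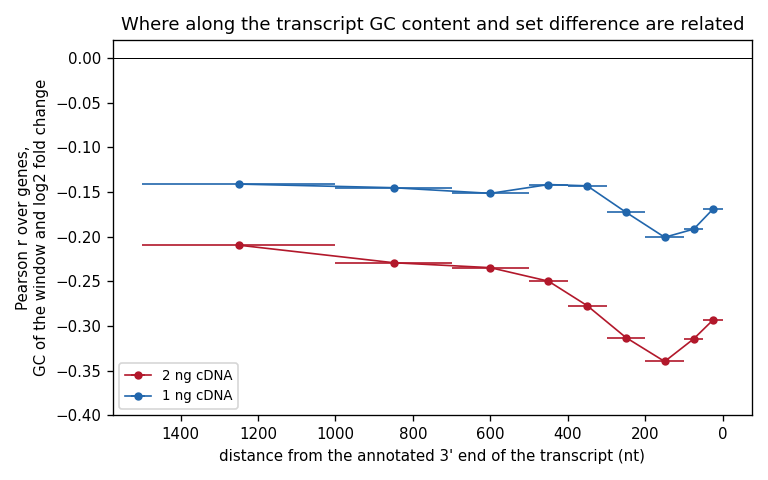
Pearson's r across genes between GC content of a window and the log2 fold change of set A over set B (vertical axis) is plotted against the distance of the window from the annotated 3' end in bases (horizontal axis, with bars for the window's width). Both curves are lowest at 100 to 200 bases, at -0.34 for 2 ng and -0.20 for 1 ng, and the 2 ng curve lies below the 1 ng curve in all 9 windows.

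With offsets that remove the smooth dependence of each library on GC content, chosen after seeing the data, 3554 genes were called at 2 ng, 2848 of them also called without the offsets, and 501 were called at 1 ng, 421 of them also called without. Snap25 kept a log2 fold change of 0.52 at 2 ng and 0.14 at 1 ng, and Ptn one of 0.88 and 0.34. Tmem160 kept -1.05 and -0.87. The log2 fold changes at the 2 amounts remained related across 11994 genes with r = 0.43. Most genes called without the offsets were thus also called with them, 2828 of the 2848 in the same direction at 2 ng.

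Gene length and abundance were less closely related to the set difference. In the quintile of genes with the shortest deposited length (up to 1776 bases), 367 of 2379 were higher in set A at 2 ng (15.4%) and 616 lower (25.9%). The shares of all genes were 18.1% and 16.2%. The median log2 fold change of this quintile was -0.07, whereas the longest quintile (over 5372 bases) had a median of 0.01. Short genes had more GC at the end (median 46.3% against 37.7%), and with GC offsets the medians were -0.03 and -0.05. Among genes with low GC the order was the other way, since the short ones had a median of 0.37 and the long ones 0.13. At 1 ng the medians of the quintiles by length lay between -0.02 and 0.01. By abundance, the most abundant quintile (over 74.6 CPM) had a median of -0.07 at 2 ng, and the 2 least abundant quintiles 0.03 each. Of the 2507 genes of the most abundant quintile, 595 were higher (23.7%) and 1028 lower (41.0%). At 1 ng the medians of the quintiles by abundance lay between -0.01 and 0.01. Protein-coding genes with the shortest 3' UTRs (up to 397 bases) had a median of -0.09 at 2 ng and -0.02 at 1 ng.

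By gene type, genes of mitochondrial DNA took 9.51% ± 1.12 of the counts in set A and 8.91% ± 1.09 in set B at 2 ng, and 10.3% ± 1.17 and 9.72% ± 1.13 at 1 ng (SD, n = 6 each). The share was higher in set A in 6 of 6 mice at each amount. The 2 mitochondrial rRNAs were called higher at both amounts, mt-Rnr1 by 0.10 ± 0.01 at 2 ng and 0.09 ± 0.01 at 1 ng, and mt-Rnr2 by 0.07 ± 0.01 and 0.10 ± 0.01 (log2, SE). The mitochondrial tRNAs moved in opposite directions at the 2 amounts. At 2 ng none of 14 tested was called higher in set A and 8 were called lower (median log2 fold change -0.16), and at 1 ng 13 of 14 were called higher and none lower (median 0.40). Their share of the counts at 1 ng was 0.252 to 0.397% in set A (median 0.278%) and 0.201 to 0.3005% in set B (median 0.215%), and it was higher in set A in 6 of 6 mice. LincRNAs took 3.27% ± 0.580 of the counts in set A and 3.65% ± 0.638 in set B at 2 ng (lower in set A in 6 of 6 mice), which includes Malat1 at -0.17 ± 0.01 and Meg3 at -0.20 ± 0.01 on the log2 scale. At 1 ng Malat1 gave 0.01 ± 0.01 (adjusted p = 0.419) and Meg3 -0.06 ± 0.01. The 14 gene types were tested at both amounts by the exact paired permutation test, two-sided, and several reached its smallest p of 0.0313, but none passed Benjamini-Hochberg adjustment over the 28 tests (smallest adjusted p = 0.0795).

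Neuronal and glial markers were called in both directions at 2 ng, and the medians of their lists lay between -0.13 and 0.02 on the log2 scale, beside -0.01 for all genes. In bulk tissue RNA fewer cells of a type and less RNA per cell cannot be told apart, but both libraries of a pair came from the same mouse. Of 12 lists of cell type markers, 10 had a median below that of all genes at 2 ng and 11 at 1 ng. Excitatory neuron markers had 4 of 14 higher and 3 lower at 2 ng (median log2 fold change -0.06), and inhibitory neuron markers 4 of 14 higher and 3 lower (median -0.02), beside the 18.1% and 16.2% of all genes. With GC offsets the excitatory counts at 2 ng were 2 and 3. At 1 ng the excitatory calls were all lower, with 0 of 14 higher and 4 lower (28.6%, median -0.002). The shares of all genes there were 2.88% and 2.79%. With GC offsets 0 were higher and 3 lower at 1 ng. Inhibitory markers had 2 of 14 higher and 1 lower at 1 ng (median -0.01), or 1 and 0 with GC offsets. The summed CPM of each of these lists was higher in set A in 0 mice at either amount. Of the most abundant excitatory markers, Nrgn, a calmodulin-binding protein of dendrites, was lower, at -0.13 ± 0.01 (2 ng) and -0.04 ± 0.01 at 1 ng, and Camk2a, a kinase of synaptic plasticity, at -0.34 ± 0.04 and -0.15 ± 0.03. Of the most abundant members of the inhibitory list, the neuropeptide gene Cck was lower, at -0.32 ± 0.01 and -0.09 ± 0.01, and Npy at -0.21 ± 0.02 at 2 ng, with -0.01 ± 0.02 at 1 ng (adjusted p = 0.913). Which cells the reads of Cck came from was not tested. Pan-neuronal genes had 4 of 16 higher and 8 lower at 2 ng (median -0.08) and 3 of 16 higher and 3 lower at 1 ng (median below 0.01 in size), beside 2.88% and 2.79% of all genes. With GC offsets the pan-neuronal counts were 4 and 5 at 2 ng (median -0.02) and 3 and 1 at 1 ng. The summed CPM of the pan-neuronal list went the other way, at 10716 to 12233 in set A and 9326 to 10369 in set B, and its most abundant member was Snap25.

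Single neuronal genes differed more than the lists did, in both directions. The genes of this paragraph were picked after their values were seen, as were Gja1, Tmem119, P2ry12, C1qa, C1qc, Hba-a2, Hbb-bt, Vamp2, Syp, Gabra4, Hnrnpa2b1, Srsf5 and Junb below. Gad1, which makes GABA, had 256 to 300 CPM in set A at 2 ng (median 285) and 147 to 193 in set B (median 181), a log2 fold change of 0.65 ± 0.04 (adjusted p = 5.91e-33) and 0.16 ± 0.04 at 1 ng. Cnr1, a cannabinoid receptor, was higher by 0.70 ± 0.08 and 0.25 ± 0.08. Rbfox3, the gene of the neuronal marker NeuN, had 263 to 334 CPM in set A at 2 ng (median 302) and 408 to 482 in set B (median 455), a log2 fold change of -0.58 ± 0.03 (adjusted p = 6.22e-35), and -0.41 ± 0.03 at 1 ng. Neurod2 was lower, at -0.36 ± 0.05 and -0.27 ± 0.05. Slc17a7, the glutamate transporter of cortical excitatory neurons, gave -0.07 ± 0.05 at 2 ng (adjusted p = 0.357) and was lower, at -0.32 ± 0.05 at 1 ng.

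The glial lists also held calls in both directions. The shares to read their counts against are 18.1% higher and 16.2% lower of all genes at 2 ng, and 2.88% and 2.79% at 1 ng. Of 16 astrocyte markers, 6 were higher in set A and 3 lower at 2 ng (median 0.02), or 6 and 5 with GC offsets. At 1 ng none was higher and 2 lower (median -0.01). Aldoc and Clu, the most abundant, were lower, at -0.20 ± 0.01 and -0.19 ± 0.02 at 2 ng, while Gja1, the gap junction gene connexin 43, was higher by 0.56 ± 0.04. Gfap gave -0.10 ± 0.07 at 2 ng (adjusted p = 0.282) and 0.01 ± 0.07 at 1 ng (adjusted p = 0.967). Apoe was lower, at -0.20 ± 0.01 and -0.08 ± 0.01. Oligodendrocyte markers had 3 of 14 higher and 6 lower at 2 ng (median -0.10), with the myelin gene Mbp higher by 0.11 ± 0.01. Olig1, in the list of oligodendrocyte precursors (2 of 9 higher, 3 lower), was lower, at -0.44 ± 0.05 and -0.31 ± 0.05, and Bcas1 at -0.24 ± 0.06 at 2 ng. Microglial markers had 3 of 16 higher and 7 lower at 2 ng (median -0.13) and no call in either direction at 1 ng, where 5.67% of all genes were called, so few calls would be seen in 16 genes at that share. Ctss was lower, at -0.11 ± 0.03 (2 ng), Tmem119 was lower, at -0.43 ± 0.09 and P2ry12 was higher by 0.60 ± 0.07. The last 300 bases have 56.3% GC in Tmem119 and 30.3% in P2ry12. The 3 chains of complement C1q, made by microglia, differed among themselves, with C1qa lower, at -0.36 ± 0.12, C1qb at -0.07 ± 0.04 (adjusted p = 0.145) and C1qc higher by 0.17 ± 0.04 at 2 ng, and none of the 3 was called at 1 ng.

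Of the other cell types, endothelial markers had 2 of 13 higher and 2 lower at 2 ng (Bsg -0.11 ± 0.02, Itm2a 0.46 ± 0.05), pericyte and smooth muscle markers 1 of 8 in each direction (Rgs5 0.21 ± 0.07, Vtn -0.10 ± 0.06 with adjusted p = 0.192), and striatal markers 1 of 8 lower (Ppp1r1b -0.17 ± 0.05, Penk at 0.14 ± 0.06 and not called). These shares, 15.4% for endothelial markers and 12.5% for the other two lists, were close to or below the 18.1% and 16.2% of all genes. With GC offsets the endothelial counts were 2 and 0. Choroid plexus markers had 1 of 6 lower, Ttr at -0.21 ± 0.02, while 1500015O10Rik gave -0.15 ± 0.19. Of 5 blood cell markers tested, 4 were lower in set A at 2 ng and 3 at 1 ng (medians -0.53 and -0.15). With GC offsets 4 were lower at 2 ng and 0 at 1 ng (medians -0.44 and -0.08). Their summed CPM was 290 to 432 in set A at 2 ng and 459 to 654 in set B. The haemoglobin gene Hbb-bs had 139 to 223 CPM in set A at 2 ng (median 176) and 198 to 338 in set B (median 253), overlapping ranges in which set A was lower in 6 of 6 mice, at -0.53 ± 0.04 on the log2 scale. The log2 fold changes of Hba-a1 and Hba-a2 were -0.61 ± 0.06 and -0.73 ± 0.07, and that of Hbb-bt -0.40 ± 0.09. Hba-a1 and Hba-a2 are near-identical copies, as are Hbb-bs and Hbb-bt, so the split of reads between copies is uncertain. Over the 12 lists, the median log2 fold change at 2 ng was related to the median GC content of the list with r = -0.78, which describes lists from the same libraries and is no test.

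**Figure D5:**
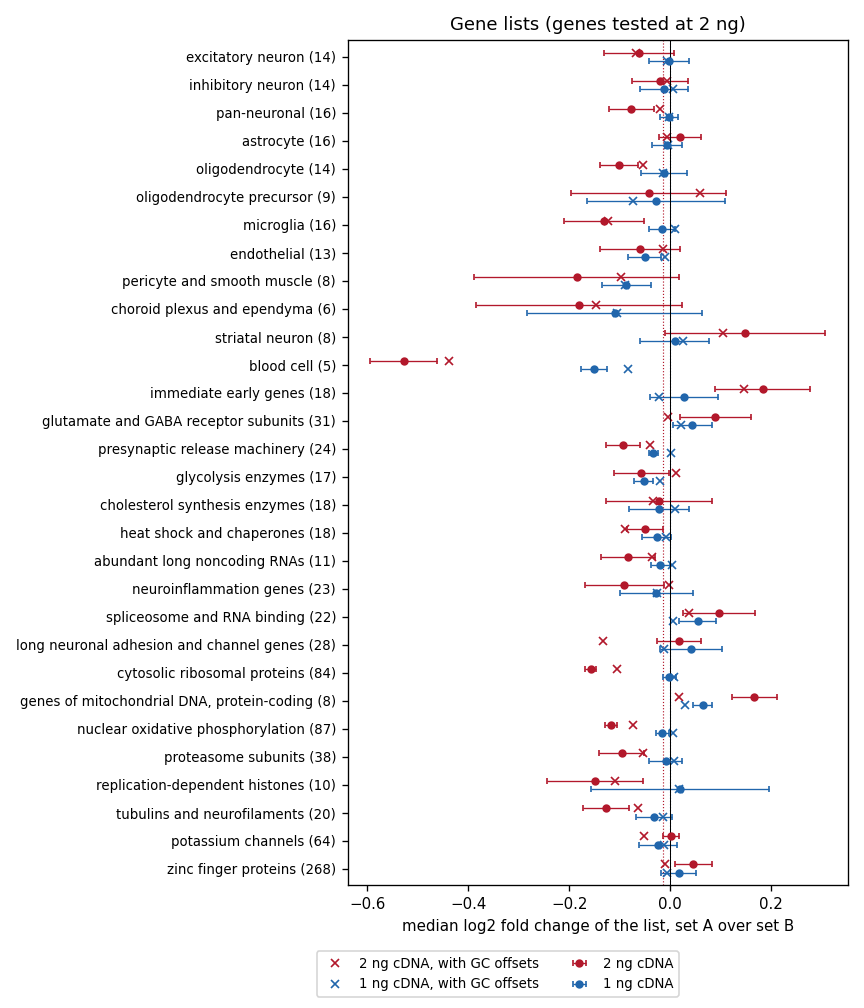
Dots show the median log2 fold change of set A over set B (horizontal axis) of each list of cell type markers or functional genes, red for 2 ng and blue for 1 ng, with bars of 1 SD over the medians of the 6 mice, crosses for the median with GC offsets and dotted lines at the median of all genes. The blood cell list lies farthest left at -0.53 (2 ng), ribosomal proteins lie at -0.16, and the immediate early genes lie farthest right at 0.18.

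Among functional groups, cytosolic ribosomal proteins were mostly lower in set A at 2 ng. Of 84 tested, 63 were lower and 1 higher (75% and 1.19%, median log2 fold change -0.16), beside 16.2% and 18.1% of all genes. In the most abundant quintile of genes 41.0% were lower and 23.7% higher, and the lists were not matched for abundance. At 1 ng 7 ribosomal protein genes were lower and 4 higher (median below 0.01 in size). These shares were 8.33% and 4.76%, beside 2.79% and 2.88% of all genes at 1 ng. Rps14 was lower, at -0.27 ± 0.02 and Rplp1 at -0.24 ± 0.02 at 2 ng. Nuclear genes of oxidative phosphorylation followed, with 49 of 87 lower and 12 higher (median -0.12), among them Cox4i1 (-0.14 ± 0.01) and Cox6a1 (-0.26 ± 0.01). At 1 ng 12 of 89 were lower and 12 higher, 13.5% in each direction and above the shares of all genes at 1 ng. The genes of the same pathway on mitochondrial DNA went the other way, with 6 of 8 higher and none lower at 2 ng and 5 of 8 higher at 1 ng (medians 0.17 and 0.06), where mt-Nd1 gave 0.09 ± 0.01 and 0.03 ± 0.01 and mt-Cytb -0.02 ± 0.01 (adjusted p = 0.179) and 0.07 ± 0.01. With GC offsets the median of these 8 genes was 0.02 at 2 ng, with 3 called in each direction. That of the ribosomal proteins was -0.10, with 50 lower and 3 higher, and at 1 ng 1 was lower and 10 were higher. Lower in set A at 2 ng were also 18 of 38 proteasome subunits against 7 higher (Psma7 -0.15 ± 0.03, Psmb1 at 0.00 ± 0.03 with adjusted p = 0.936), 10 of 20 tubulins and neurofilaments against 2 (Tubb5 -0.12 ± 0.02, Tuba1a at -0.01 ± 0.02 with adjusted p = 0.633), 7 of 17 glycolysis enzymes against 2 and 6 of 18 chaperones against 3. The shares lower in these lists were 47.4%, 50%, 41.2% and 33.3%, beside 41.0% of the most abundant quintile of genes. With GC offsets the glycolysis enzymes had 5 lower and 4 higher. Hsp90aa1 and Hsp90ab1, cytosolic chaperones, were lower, at -0.30 ± 0.02 and -0.21 ± 0.01, whereas the glycolytic gene Aldoa was higher by 0.13 ± 0.01.

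Groups of synaptic genes held calls in both directions. Their counts are to be read against 18.1% higher and 16.2% lower of all genes at 2 ng, and 2.88% and 2.79% at 1 ng. In the presynaptic release machinery 8 of 24 were higher and 12 lower at 2 ng (median -0.09), and at 1 ng 2 were higher and 5 lower. With GC offsets 8 were higher and 8 lower at 2 ng. Besides Snap25, its fusion partner Vamp2 was higher by 0.46 ± 0.03 at 2 ng, with -0.02 ± 0.03 at 1 ng, while the calcium sensor Syt1 was lower, at -0.09 ± 0.02. Syp, the vesicle protein synaptophysin, was called in opposite directions, with 131 to 209 CPM in set A against 110 to 137 in set B at 2 ng (medians 178 and 122, 0.53 ± 0.05, adjusted p = 8.14e-19) and 97.3 to 111 against 112 to 130 at 1 ng (medians 107 and 117, -0.16 ± 0.05, adjusted p = 0.0388). Its ranges overlapped at 2 ng and not at 1 ng. Of 31 glutamate and GABA receptor subunits 10 were higher and 4 lower at 2 ng (median 0.09), and 7 and 3 with GC offsets (median below 0.01 in size). The AMPA receptor subunit Gria2 was higher by 0.47 ± 0.02 and Gabra4 by 0.87 ± 0.06, and the NMDA receptor subunit Grin2b was lower, at -0.26 ± 0.03. Among 28 long neuronal adhesion and channel genes 5 were higher and 6 lower (17.9% and 21.4%, near the shares of all genes), with Ntm at -0.42 ± 0.03. With GC offsets 3 were higher and 11 lower, and the median went from 0.02 to -0.13. Of 64 potassium channels 8 were higher and 7 lower (Kcna1 -0.16 ± 0.04, Kcnab2 0.09 ± 0.04). These shares, 12.5% and 10.9%, were below those of all genes, but the list was not matched for abundance. In the least abundant quintile of genes 6.79% were higher and 1.99% lower.

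Among genes of RNA processing, the balance of the calls turned with GC offsets. For the counts of this paragraph, the shares of all genes at 2 ng were 18.1% higher and 16.2% lower. At 1 ng they were 2.88% and 2.79%. Of 22 spliceosome and RNA binding genes 10 were higher and 7 lower at 2 ng (median 0.10) and 5 and 1 at 1 ng, whereas with GC offsets 6 were higher and 7 lower at 2 ng and 1 and 2 at 1 ng. Without the offsets Hnrnpa2b1 was higher by 0.55 ± 0.03 and Srsf5 by 0.55 ± 0.04, and Srrm2 and Son were lower, at -0.43 ± 0.02 and -0.29 ± 0.02. Of 18 immediate early genes 6 were higher and 2 lower (median 0.18), and 3 and 2 with GC offsets, with Egr1 higher by 0.16 ± 0.04 without them, Junb by 0.54 ± 0.07 and Dusp6 by 0.63 ± 0.06. Neuroinflammation genes had 4 of 23 higher and 6 lower (17.4% and 26.1%, median -0.09). With GC offsets 4 were higher and 0 lower (median below 0.01 in size). B2m was higher by 0.66 ± 0.03 without the offsets. Cholesterol synthesis enzymes had 4 of 18 higher and 2 lower (Hmgcs1 0.17 ± 0.04, Msmo1 0.11 ± 0.04), replication-dependent histones 1 of 10 higher and 3 lower (Hist1h4d -0.39 ± 0.08, Hist1h2bc 0.08 ± 0.05 with adjusted p = 0.232, both of a family with near-identical members), abundant long noncoding RNAs 3 of 11 higher and 4 lower, and zinc finger proteins 23 of 268 higher and 18 lower, or 13 and 18 with GC offsets (Zfp706 0.05 ± 0.04 with adjusted p = 0.308, Zfp365 0.06 ± 0.04 with adjusted p = 0.288). The zinc finger shares were 8.58% and 6.72%, below the 18.1% and 16.2% of all genes. This list was not matched for abundance either, and in the least abundant quintile 6.79% were higher and 1.99% lower.

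The set difference was compared between the cDNA amounts. Of 12758 genes tested in 1 model over all 24 libraries, 1450 (11.4%) had a set difference at 2 ng that was not that at 1 ng. Taken with its sign, the log2 fold change was higher at 2 ng in 833 and lower in 617. A lower value can be a stronger decrease in set A, as in Actb. The 3 smallest adjusted p were those of Snap25, Actb and Ppp3r1. Actb, the cytoskeletal actin often used as a reference gene, had 1719 to 2166.1 CPM in set A at 2 ng (median 1845) and 2425 to 3098 in set B (median 2586), with no overlap and a log2 fold change of -0.49 ± 0.01. At 1 ng its ranges overlapped, at 2212 to 3068 (median 2392) against 2398 to 3277 (median 2577), and the log2 fold change was -0.10 ± 0.01. Ppp3r1, a subunit of calcineurin, gave 0.75 ± 0.02 at 2 ng and 0.18 ± 0.03 at 1 ng. Over 7520 genes of at least 16 CPM, the root mean square of the mean log2 difference within mice was 0.27 between set A and set B at 2 ng and 0.14 at 1 ng. Set A at 2 ng differed by 0.28 from set A and by 0.32 from set B at 1 ng, and set B at 2 ng by 0.24 and 0.20. Each of the 3 distances of set A at 2 ng was larger than each of the 3 distances among the other sets.

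The set difference was not found to depend on the genotype. The test of a difference between GFAP-IL6 and WT mice called 0 of 12089 genes at 2 ng (0%) and 0 of 12467 at 1 ng (0%) by edgeR, and 0 at each amount by DESeq2. At an unadjusted p under 0.05 edgeR gave 525 genes (4.34%) at 2 ng and 523 (4.195%) at 1 ng, and the smallest adjusted p were 0.9997 and 0.805. Gnai3, Apoh and Narf were named for the smallest adjusted p at 2 ng, but other genes, such as mt-Nd3 and Cav2, had the same value. Their rank is a tie and carries no information. At 1 ng Lyst, Ebpl and Plaa were among the genes with the smallest adjusted p. Fitted apart, the 3 WT mice gave 2302 calls between the sets at 2 ng and the 3 GFAP-IL6 mice 3026. Of 3563 genes called in either genotype, 3432 moved in the same direction in both. Across 11866 genes the log2 fold changes of the 2 genotypes were related with r = 0.62. The genotypes share no library but may have shared a pool. At 1 ng the calls numbered 170 and 320, 357 of 367 moved in the same direction, and r was 0.19 across 12254 genes.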

How the data were processed

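RNA of mouse frontal cortex was measured in 24 libraries made by 3'Pool-seq. The authors trimmed polyA stretches, aligned reads with STAR to mm10 and counted unique reads on GENCODE vM6 genes with featureCounts. The submitters' processing notes list STAR 2.4, featureCounts, Subread and the build hg19, which is human and was not used here, as the gene identifiers are those of mouse. The authors deposited raw counts for 33000 genes, not normalized, with gene lengths and types. Since 61 symbols name several rows, rows were matched by Ensembl identifier. Whether counting used strand is not given in the sources used here. Reads carry no molecular identifiers, so depth and counting error cover reads and not molecules.

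Set A was compared with set B within each cDNA amount with the quasi-likelihood test of edgeR 4.0.16 in R 4.3.3, using TMM factors, filterByExpr and the mouse as a block. The mouse is the replicate, and the same mouse number in a genotype is the same animal. The deviations of the 2 libraries of a mouse from their group means correlated with r = 0.21 to 0.44 over 7520 genes, and at most 0.03 with the libraries of other mice of the genotype. Deviations within a group of 3 mice cancel out, so the low values with other mice are in part built in. A gene was called at a Benjamini-Hochberg adjusted p under 0.05. Differences between amounts and genotypes were tested as interactions, whereas shares of counts and totals were tested by exact permutation, flipping the sign of each mouse's difference in all 64 ways. DESeq2 1.42.0, named in the study's methods for differential expression, was an alternative. Offsets for GC content, a smooth of each library's log2 CPM on the GC content of the last 300 bases, were added after seeing the data. Other alternatives were no replicate block, each genotype alone, each mouse left out, other scalings, filters on low counts and thinning. Values per library are CPM after TMM scaling. Sequences and GC content came from the longest basic GENCODE vM21 transcript (same build), found for 99.8% of the genes tested. Python 3.11.15 with scipy 1.17.1 was used. The tests were checked on simulated data.

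Named genes were those with the largest differences called at both amounts in all pairs (8 in each direction, at least 5 CPM), those called at 1 amount only (4 in each direction), the smallest adjusted p, the 2 most abundant members of each list, mt-Rnr1, mt-Rnr2, Malat1, Apoe, Gfap and Il6. Others were picked after their values were seen and are named as such. Some genes that this rule names are not reported here. The letters A and B alone assign libraries to sets, but the comparison itself, the 12 marker and 18 function lists and these rules were chosen with earlier results of these data known.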

Additional observations from a re-analysis of the deposited data

Results flagged for a closer look

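For 71 of the 119 genes tested among those named or picked, the set difference at 2 ng was not that at 1 ng in edgeR's test of the interaction (adjusted p under 0.05). Over all genes it was 1450 of 12758 (11.4%). Some of the 119 were chosen for a call at 1 amount only, for the smallest adjusted p of this test or after their values were seen. Their higher share thus follows in part from the choice and is no result. The differences are given as the log2 fold change of set A over set B at 2 ng minus that at 1 ng. Larger and smaller refer below to the value with its sign, so a smaller one can be a stronger decrease. In 13 of the 71, the log2 fold changes had opposite signs at the 2 amounts. These were Nup54, Smad5, Grin2b, Malat1, Ntm, mt-Cytb, Psma7, Hist1h4d, Zfp365, Narf, Syp, Vamp2 and C1qc.

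Among the genes with a larger log2 fold change at 2 ng, the nuclear pore genes led, with 1.44 for Nup54 and 1.06 for Nup153, before 0.99 for Bbs5, 0.97 for Dck, 0.78 for Tceal1, 0.76 for Cav2, 0.64 for Lsm5, 0.63 for Pdcl3, 0.50 for Tcp11l2, 0.49 for Bloc1s4 and 0.43 for Tdp2. Of genes on mitochondrial DNA, mt-Nd3 differed by 0.63 and mt-Nd1 by 0.0612. Synaptic and neuronal genes gave 0.69 for Gabra4, 0.69 for Syp, 0.58 for Ppp3r1, 0.50 for Gad1, 0.48 for Snap25, 0.48 for Vamp2, 0.45 for Cnr1, 0.27 for Gria2 and 0.25 for Slc17a7. Genes of glia, vessels and immunity gave 0.52 for Ptn, 0.51 for B2m, 0.50 for P2ry12, 0.44 for Gja1, 0.33 for Itm2a, 0.21 for C1qc and 0.0687 for Mbp. The remaining ones were 0.58 for Gnai3, 0.47 for Narf, 0.42 for Junb, 0.40 for Srsf5, 0.37 for Hnrnpa2b1, 0.34 for Dusp6, 0.23 for Zfp365 and 0.11 for Aldoa.

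Among the genes with a smaller log2 fold change at 2 ng, Smad5 differed by -0.91, the haemoglobin genes Hba-a2, Hba-a1, Hbb-bs and Hbb-bt by -0.57, -0.46, -0.43 and -0.30, and Actb by -0.38. Neuronal genes gave -0.44 for Ntm, -0.27 for Grin2b, -0.23 for Cck, -0.20 for Npy, -0.19 for Camk2a, -0.17 for Rbfox3, -0.16 for Kcna1, -0.091 for Syt1 and -0.0817 for Nrgn. Genes of glia and choroid plexus gave -0.15 for Ttr, -0.13 for Aldoc, -0.12 for Apoe and -0.12 for Clu. Genes of RNA processing, long noncoding RNAs and housekeeping groups gave -0.42 for Hist1h4d, -0.36 for Srrm2, -0.26 for Son, -0.25 for Hsp90aa1, -0.21 for Cox6a1, -0.20 for Rps14, -0.18 for Malat1, -0.17 for Hsp90ab1, -0.15 for Pink1, -0.15 for Psma7, -0.13 for Meg3, -0.12 for Rplp1, -0.10 for Cox4i1, -0.10 for Tubb5 and -0.0865 for mt-Cytb.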

How the results depend on the processing

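The fits with the mouse as a block called 4146 genes at 2 ng and 707 at 1 ng, and with no replicate block 2567 and 94, with 77 in place of 575 called in the same direction at both amounts. The share of calls higher in set A was then 62.3% and 21.3%, in place of 52.9% and 50.8%. With only WT mice the 3 counts were 2302, 170 and 128, and with only GFAP-IL6 mice 320 genes were called at 1 ng and 259 in the same direction at both amounts. A threshold on the fold change as well left 59 and 6 genes. Leaving out each mouse in turn gave 3400 to 4086 calls at 2 ng, 484 to 654 at 1 ng, 1115 to 1451 for the difference between amounts and 375 to 533 in the same direction at both amounts, the last falling to 375 without GFAP-IL6 mouse 3. DESeq2 called 2795 and 543 genes. Without the genes of mitochondrial DNA in the totals, the share of protein-coding genes at 1 ng turned from -0.39 to 0.0409 percentage points (exact p = 0.0625), lincRNAs differed by -0.0411 points (p = 0.0625) and antisense genes by -0.00205 points (p = 0.188). With at least 5 counts in place of 1 CPM, set A minus set B at 1 ng was -418.7 genes (exact p = 0.0313), beside 0.763 times the reads. Among the values of named genes, 5 that were called changed sign with GC offsets. They were those of Egr1 to -0.0756, mt-Nd1 to -0.0202 at 2 ng and -0.00553 at 1 ng, Cox6a1 to 0.000494 at 1 ng and mt-Rnr1 to -0.0357 at 2 ng. Of all genes called both with and without the offsets, 2828 of 2848 kept their direction at 2 ng and 421 of 421 at 1 ng. The smallest p for 6 pairs is 0.0313, and genes of few reads were tested at low precision.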
